A study of Mus musculus with 9 samples.

Results

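The respiratory chain and ATP synthase genes of the nuclear genome were read across 9 arrays of mouse bone marrow progenitors. A gene was taken as a member when its symbol in the platform annotation began with Ndufa, Ndufb, Ndufc, Ndufs, Ndufv, Uqcr, Cox4, Cox5, Cox6, Cox7, Cox8 or Atp5, or was Sdha, Sdhb, Sdhc, Sdhd, Cycs or Cyc1, and assembly factors named Ndufaf and pseudogenes were left out. This gave 84 of the 18193 genes that have a probe set of their own, and 80 of the 84 lay high enough to be tested. By name 36 belong to complex I, 4 to complex II, 9 to complex III, 1 is the soluble cytochrome c, 17 belong to complex IV and 17 to complex V, the ATP synthase. The cells were Lineage-CD117+SCA-1+CD135+ cells, early progenitors sorted by flow cytometry, from mice of 3 genotypes: wild type (WT) controls, E2A-/- mice and Lyl1-/- mice, with 3 arrays each. E2A is the E protein that the gene Tcf3 encodes, and Lyl1 is a basic helix-loop-helix factor that pairs with E proteins and is related to Tal1, which the series title names. The labels call the arrays of a genotype biological replicates and give neither strain nor age, nor whether animals were pooled.

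The respiratory chain sits in the inner mitochondrial membrane. Complexes I and II pass electrons from NADH and succinate to ubiquinone, complex III passes them to cytochrome c, complex IV hands them to oxygen, and the ATP synthase uses the proton gradient that complexes I, III and IV build. The most primitive blood-forming cells are known for relying on glycolysis, and respiration gains weight as progenitors become active and commit. The arrays measured RNA, and respiration itself was not analysed here.

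Promoters of these genes are known to share binding sites for a few factors, NRF1, GABPA and YY1 among them, and 4 promoters are shown because their genes recur below: Ndufs5, Atp5g2 and Atp5e stood among the widest differences between genotypes, and Sdhd encodes a membrane anchor of complex II. Each line holds the 160 bases before the annotated start, from RefSeq on GRCm38.p6, written 5′ to 3′ along the gene, with motif matches in capitals. The windows are chr4:123718187-123718346 for Ndufs5, chr15:102671048-102671207 for Atp5g2, chr2:174464102-174464261 for Atp5e and chr9:50603850-50604009 for Sdhd, all on the minus strand.
Ndufs5 promoter: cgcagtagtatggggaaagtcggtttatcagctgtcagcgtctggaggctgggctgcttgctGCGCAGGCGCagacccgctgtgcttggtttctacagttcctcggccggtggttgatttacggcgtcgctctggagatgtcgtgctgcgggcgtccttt
Atp5g2 promoter: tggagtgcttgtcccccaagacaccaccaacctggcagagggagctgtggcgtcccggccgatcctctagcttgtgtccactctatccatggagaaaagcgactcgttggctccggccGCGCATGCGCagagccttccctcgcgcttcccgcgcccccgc
Atp5e promoter: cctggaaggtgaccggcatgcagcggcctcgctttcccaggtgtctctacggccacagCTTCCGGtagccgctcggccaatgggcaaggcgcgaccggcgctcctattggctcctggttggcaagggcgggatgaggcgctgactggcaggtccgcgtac
Sdhd promoter: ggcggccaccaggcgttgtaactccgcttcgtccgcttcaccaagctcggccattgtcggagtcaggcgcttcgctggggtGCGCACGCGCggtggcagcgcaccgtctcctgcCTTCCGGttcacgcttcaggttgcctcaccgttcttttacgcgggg
The capitals in Ndufs5 and Atp5g2 are matches to the NRF1 motif, which begin 98 and 42 bases before the start, and that in Atp5e is a match to the GABPA motif, 102 bases before it. Sdhd holds both, an NRF1 match 79 bases and a GABPA match 46 bases before the start. These 4 were picked after the scan for having a match in the stretch shown, so that they hold one is no finding.

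Over the whole set, 68 members had a promoter window in the table, from 250 bases before to 50 after a start. Both strands were searched for GCGCA, any base and GCGC in a row (NRF1), CCGGAAG (GABPA) and AAGATGGCG (YY1). The NRF1 letters were found for 15 of the 68 members (22.1%), against 7.17% of 17492 protein-coding genes. The GABPA letters were found for 17 (25%), against 12.9%, and the YY1 letters for 6 (8.82%), against 2.14%. At least 1 of the 3 motifs was found for 33 members (48.5%), against 20% of protein-coding genes and 13.6% of all 32851 windows, and 5 members held more than 1 kind. A match is a description of letters and not a site of binding, and no match says only that these letters are not in the window. Split by whether a promoter held a motif, the median log2 difference of the tested members between Lyl1-/- and WT was 0.136 with a motif (32 genes) and 0.0922 without (33 genes). The same medians were 0.0393 and 0.00514 between E2A-/- and WT, and -0.149 and -0.0338 between E2A-/- and Lyl1-/-, and the split was not tested.

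Before the values, the state of the arrays matters, since several stood apart. WT 1 and WT 3 were nearly alike: the robust spread of their log2 difference at bright probe sets was 0.0827, against 0.193 to 0.375 in the 35 other pairs of arrays, and over the members it was 0.0649 against 0.123 to 0.33. They were averaged and counted as 1 sample, so that WT had n = 2 and each knockout n = 3. The p-values measure the spread between these few samples. The next closest pair at bright probe sets was Lyl1-/- 1 and 2, at 0.193, and 0.135 over the members. Of their probe sets 6 lay more than 2-fold apart, against 0 for WT 1 and WT 3 and 77 to 371 for the remaining pairs. Lyl1-/- 1 and 2 were kept as separate samples, and how independent they are was not tested. The actin 3′ over 5′ intensity ratio, which climbs when RNA is degraded or labelled short, was 10.6 on WT 2 and 10.1 on E2A-/- 2 and 2.85 to 4.23 on the other arrays. WT 2 also had the stroma marker Col1a2 at 414.7, against 72.15 and 77.83 on WT 1 and 3. Col1a1 read 129.8 there, against 66.65 and 65.04, and the other stroma markers on WT 2 read 56.65 to 68.46. The summed level of the mature granulocyte and monocyte markers, of which 12 of 17 were tested and 9 lay above the array median on every array, was 3348 to 4234 on WT, 4033 to 22540 on E2A-/- and 3307 to 5201 on Lyl1-/- arrays. Its tested members had a median of 2.93 and 3.08 log2 units above WT on E2A-/- 2 and 3. Xist, the RNA of the inactive X chromosome in female cells, read 2360 on E2A-/- 2, 2010 and 2000 on Lyl1-/- 1 and 2, and 79.7 to 104 elsewhere. Lyl1 read 1352 to 1443 on WT arrays, 824.8 to 1222 on E2A-/- arrays and 79.22 to 91.96 on Lyl1-/- arrays, whereas Tcf3 overlapped between E2A-/- (121.4 to 192.8) and WT (164.2 to 204.6), so that its probe set did not separate the E2A-/- arrays. Of the sort markers, Kit, the gene of CD117, and Flt3, the gene of CD135, lay above the array median on every array. Ly6a, the gene of SCA-1, had no probe set of its own and was not read. Flt3 read 1302, 1052 and 1254 on WT, 1141, 1217 and 863.4 on E2A-/-, and 671.6, 741.6 and 1136 on Lyl1-/- arrays. Kit and Flt3 together with Cd34 and Ptprc, which the gate does not name, had a median difference from WT of -0.14 in E2A-/- and -0.302 in Lyl1-/-.

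The genes of the respiratory chain gave bright signals in these cells. Of the 84 members, 68 (81%) lay above the 90th percentile of their array on all 9 arrays, as 12.6% of all genes did, although brightness depends on the probe as well as on the RNA. The tissue-restricted isoforms were among the exceptions. Cox4i2, the lung isoform of subunit 4, read 72.3 to 80.1 and was above the array median of 77.9 to 79.2 on 1 array. Cox7a1 of heart and muscle read 63.4 to 69.6 and Cox7b2 of testis 55 to 62.3, and neither was tested. The fourth untested member, Ndufb4, read 60.8 to 72.6 on its own probe set, whereas a probe set shared with its copies Ndufb4b and Ndufb4c read 794 to 1030. Among tested isoforms, Cox8b of muscle read 78 to 90.2, Ndufa4l2 78.5 to 90.3, Cox6a2 of muscle 96.8 to 140.6 and Cox8c of testis 110.3 to 139.5. Their widely expressed counterparts read higher, but on other probe sets, so that these levels cannot be set against each other.

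No member passed the threshold in any of the 3 comparisons. With limma, 0 of 80 tested members had an adjusted p under 0.05 in E2A-/- against WT, where 0.226% of all 11961 tested genes did, 0.117% higher and 0.109% lower. The count was also 0 in Lyl1-/- against WT, where 0.192% of all tested genes passed (0.0669% higher, 0.125% lower), and in E2A-/- against Lyl1-/-, where 0.117% did (0.092% higher, 0.0251% lower). At an unadjusted p under 0.05, 4 members were higher and 0 lower in E2A-/- than in WT (all genes 3.21% and 5.36%), 9 were higher and 0 lower in Lyl1-/- than in WT (3.8% and 5%), and 1 was higher and 8 lower in E2A-/- than in Lyl1-/- (3.85% and 4.8%). A missed threshold does not show that levels were alike, and the 95% interval of each gene gives a range for its difference. The interval lay within 2-fold either way for 75 of 80 members in E2A-/- against WT, for 72 in Lyl1-/- against WT and for 73 between the knockouts, and within 1.5-fold for 56, 54 and 59. These intervals hold gene by gene and not for all 80 at once. The same counts over all tested genes were not made, so they do not set the members apart. The widest intervals belonged to Atp5g2 and Atp5l, which varied most between arrays of one genotype. The median SD within a genotype was 0.133 on the log2 scale for members and 0.157 for all tested genes.

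As a group the members leaned upward in Lyl1-/- cells by a small amount. Their median log2 difference from WT was 0.0945 in Lyl1-/-, beside -0.00478 over all tested genes, and 0.00784 in E2A-/-, beside -0.013. Between the knockouts, E2A-/- minus Lyl1-/-, it was -0.0693 beside -0.00835. A difference of 1 is 2-fold, so these shifts are small. The difference from WT was above 0 for 59 of 80 members in Lyl1-/- (73.8%), against 48.6% of all tested genes, and for 41 of 80 in E2A-/- (51.2%), against 46.3%. It was above 0 for 22 of 80 between E2A-/- and Lyl1-/- (27.5%), against 47.4%. Both comparisons with WT share the WT arrays. Markers of other cells also differed on the Lyl1-/- arrays: the granulocyte markers had medians of 0.537, 0.611 and -0.162 against WT on Lyl1-/- 1, 2 and 3. Of the 8 macrophage markers 4 were tested, and 2 of them, Cd68 and Csf1r, lay above the array median on every array. Adgre1 passed the filter on knockout arrays alone and Vcam1 read 77.81 to 92.17, so no median of the list is given. The summed level of the 8 was 1115 to 2039 on Lyl1-/- and 813.5 to 953.1 on WT arrays. Cd68 read 277.7, 254.7 and 122.9 on Lyl1-/- and 132.6, 96.21 and 132.8 on WT arrays. Csf1r, a receptor of the macrophage lineage, read 1310, 1117 and 531.5 on Lyl1-/- and 289.9 to 383.5 on WT arrays, whereas C1qa and Adgre1 of mature macrophages read 64.05 to 90.6 on all arrays. The median between the knockouts moved to -0.00679 and that of E2A-/- against WT to 0.0933 without E2A-/- 2 and 3, the arrays with high granulocyte markers. E2A-/- 1, the E2A-/- array without that signal, is alone on its side there. Without E2A-/- 1 the medians were -0.0361 against WT and -0.136 between the knockouts, and without WT 2 that of E2A-/- against WT was -0.0019. The part of these markers in the differences was not tested, and in bulk samples fewer cells of a type and less RNA per cell cannot be told apart.

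The same lean appeared as groups that did not overlap. In Lyl1-/- against WT, all arrays of Lyl1-/- lay above both WT samples for 28 of 80 members (35%), as for 12.2% of all tested genes, and below them for 3 members (all genes 14.5%). The 28 came from every complex: 12 of 35 in complex I, 1 of 4 in complex II, 3 of 9 in complex III, cytochrome c, 5 of 14 in complex IV and 6 of 17 in complex V. In E2A-/- against WT there were 13 members above (16.2%, all genes 9.7%) and 2 below (all genes 12.7%). Between the knockouts 1 member was higher in E2A-/- (all genes 5.73%) and 16 were lower (20%, all genes 6.45%). With WT 1 and WT 3 as separate arrays the counts against WT were 25 above and 2 below for Lyl1-/- (all genes 9.9% and 12.2%), and 12 and 2 for E2A-/- (7.45% and 10.3%). Without E2A-/- 2 and 3, with E2A-/- 1 alone, 21 members were higher and 32 lower than in Lyl1-/- (all genes 29.2% and 21.2%). Without Lyl1-/- 1 and 2, with Lyl1-/- 3 alone, 36 members lay above WT and 18 below (all genes 32.6% and 39.1%). A second view of each gene came from its other probe sets. Of the 28 members above WT in Lyl1-/-, 18 had another probe set past the filter, and in 13 of these every such probe set also had a difference above 0. For the 13 members of E2A-/- the count was 5 of 9. Over all 46 members with 2 or more probe sets past the filter, these shared a sign in 30 (65.2%) for Lyl1-/- against WT. For E2A-/- against WT they did in 19 (41.3%), and the share over all genes was not counted.

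**Figure D1:**
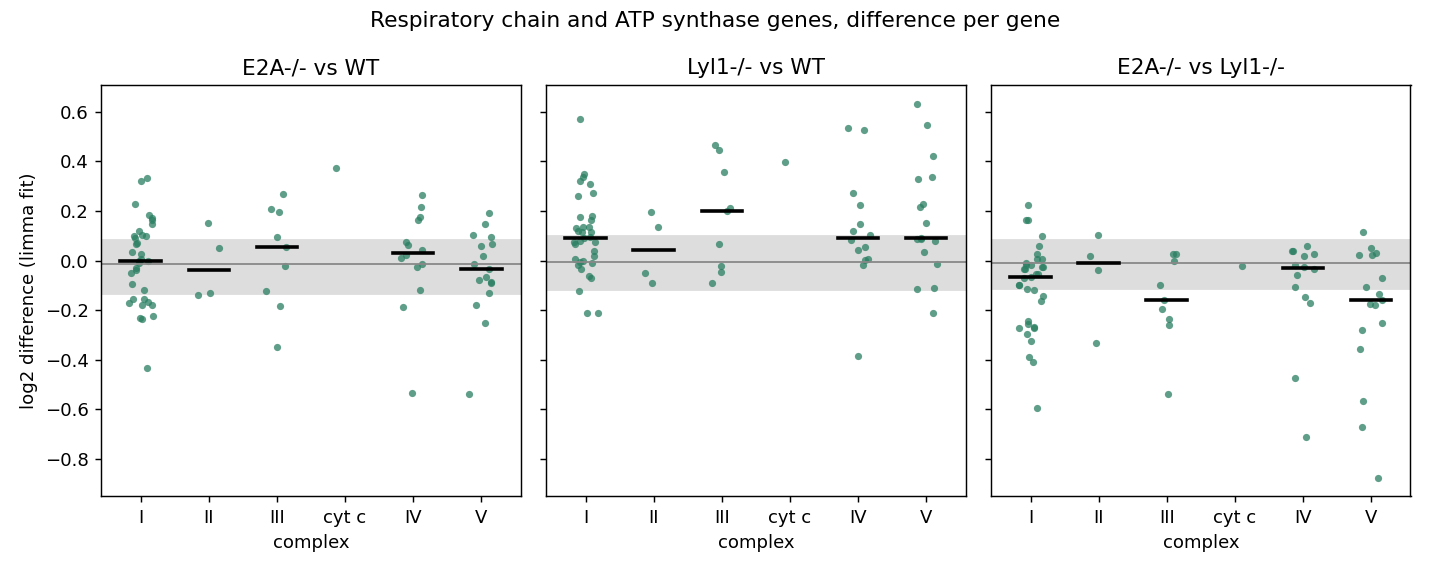
Log2 difference of each of the 80 tested members (points) by complex, one panel per comparison, from the limma fit of 8 samples. Black bars are medians of a complex, and the grey line and band are the median and the middle 50% of all 11961 tested genes. In the Lyl1-/- panel the medians of complexes I to V lie between 0.0434 and 0.198, and in the E2A-/- panel between -0.0389 and 0.0537.

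Cytochrome c and complex I. Cycs, the soluble carrier between complexes III and IV, had the lowest unadjusted p of all members in E2A-/-. It read 3550, 3482 and 3493 on WT, 4179, 4549 and 4928 on E2A-/-, and 4848, 4420 and 4574 on Lyl1-/- arrays. Every knockout array was above every WT array, and the knockouts overlapped with each other. The log2 difference was 0.375 (SE 0.102, unadjusted p = 0.00572, limma adjusted p = 0.3) in E2A-/- and 0.397 (SE 0.102, unadjusted p = 0.00417, adjusted p = 0.271) in Lyl1-/-. Other probe sets of Cycs past the filter had differences of 0.242 and 0.0725 in E2A-/- and of 0.31 and 0.353 in Lyl1-/-.

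Ndufb6, an accessory subunit of the membrane arm of complex I, had the same order. It read 1677, 1644 and 1685 on WT, 2056, 2036 and 2196 on E2A-/-, and 2185, 1894 and 2108 on Lyl1-/- arrays, again with no overlap between WT and either knockout. Its difference from WT was 0.333 (SE 0.0984, adjusted p = 0.362) in E2A-/- and 0.308 (SE 0.0984, adjusted p = 0.397) in Lyl1-/-, and a second probe set had 0.114 and 0.19. Ndufa1, a small X-linked subunit needed for complex I assembly, stood higher in E2A-/- than in the other groups. It read 3088, 3087 and 3299 on WT, 3754, 4175 and 3839 on E2A-/-, and 3470, 3360 and 3244 on Lyl1-/- arrays. The E2A-/- arrays lay above all others, with a difference of 0.32 from WT (SE 0.0924, adjusted p = 0.35) and 0.223 from Lyl1-/- (SE 0.0826, adjusted p = 0.498).

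Ndufs5, a small subunit of the intermembrane space side, had the lowest unadjusted p of all members in Lyl1-/-. It read 201.3, 156.5 and 203.2 on WT, 204.8, 194.9 and 197.8 on E2A-/-, and 251.1, 292.4 and 250.9 on Lyl1-/- arrays. The Lyl1-/- arrays stood above the rest, and E2A-/- overlapped with WT. The difference was 0.57 from WT (SE 0.13, unadjusted p = 0.00209, adjusted p = 0.22), and E2A-/- minus Lyl1-/- was -0.408 (SE 0.116, adjusted p = 0.398). A probe set shared with its pseudogene had 0.555 in Lyl1-/- and 0.232 in E2A-/-. Ndufb7, Ndufb1 and Ndufc1, accessory subunits named here after their values were seen, also had an unadjusted p under 0.05 in Lyl1-/-. Ndufb7 read 1304, 1416 and 1150 on WT, 1141, 1355 and 1367 on E2A-/-, and 1752, 1742 and 1551 on Lyl1-/- arrays. Its Lyl1-/- arrays lay above all others, with a difference of 0.351 from WT (SE 0.123, adjusted p = 0.44) and 0.695 on its second probe set.

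The core subunits of complex I went both ways on the probe sets used. Ndufv1, the subunit that oxidises NADH, differed by -0.12 in E2A-/- and -0.00414 in Lyl1-/-, and its partner Ndufv2 by -0.00342 and -0.00903. Other probe sets of Ndufv1 past the filter had -0.169 and 0.136 in E2A-/- and -0.0218 and 0.421 in Lyl1-/-. The iron-sulphur subunits Ndufs7 and Ndufs8, which carry electrons toward ubiquinone, differed by 0.0264 and -0.0502 in E2A-/- and by 0.0785 and 0.0675 in Lyl1-/-. The other probe set of Ndufs7 had 0.154 in E2A-/- and 0.372 in Lyl1-/-. Those of Ndufs8 had -0.0607 to -0.00467 in E2A-/- and 0.0385 to 0.471 in Lyl1-/-. Ndufs1, the largest subunit, read 385.2, 445.9 and 385.7 on WT, 476.8, 274.7 and 332.8 on E2A-/-, and 295.2, 457.7 and 340.1 on Lyl1-/- arrays, and all 3 groups overlapped. Its differences were -0.236 (SE 0.249) and -0.211 (SE 0.249). Ndufs3, another core subunit, read 652.6, 476.5 and 656 on WT, 802.8, 581.1 and 600.7 on E2A-/-, and 774.6, 735.9 and 525.4 on Lyl1-/- arrays, and differed by 0.229 (SE 0.22) and 0.261 (SE 0.22) with overlapping groups. These core genes were named after their values were seen, other than Ndufs1.

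A pair of complex I genes lay below WT in both knockouts on the probe sets used. Ndufs4, an assembly and stability subunit whose loss causes mitochondrial disease, read 377, 384.9 and 385.1 on WT, 339.2, 352.9 and 340.4 on E2A-/-, and 311.5, 367.3 and 316.3 on Lyl1-/- arrays. No knockout array reached WT, with differences of -0.154 (SE 0.101, adjusted p = 0.784) and -0.211 (SE 0.101, adjusted p = 0.618). Dimmer probe sets of Ndufs4 past the filter had 0.0704 and 0.0564 in E2A-/- and -0.0395 and 0.0827 in Lyl1-/-. Ndufa13, also known as GRIM-19, read 3942, 3849 and 3592 on WT, 3406, 3470 and 3220 on E2A-/-, and 3678, 3496 and 3312 on Lyl1-/- arrays. It lay below WT in both knockouts with WT 1 and 3 as their mean, and on separate arrays Lyl1-/- 1 passed WT 3. A dim probe set that Ndufa13 shares with Yjefn3, at 94.17 to 107.2, had 0.0512 in E2A-/- and 0.0686 in Lyl1-/-. Ndufa7, another accessory subunit, depended on 1 array: it read 1131, 526.6 and 1001 on E2A-/- arrays, against 996 to 1210 on WT and 1172 to 1324 on Lyl1-/-. The low reading was on E2A-/- 2, and E2A-/- minus Lyl1-/- was -0.594 (SE 0.253, adjusted p = 0.558).

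**Figure D2:**
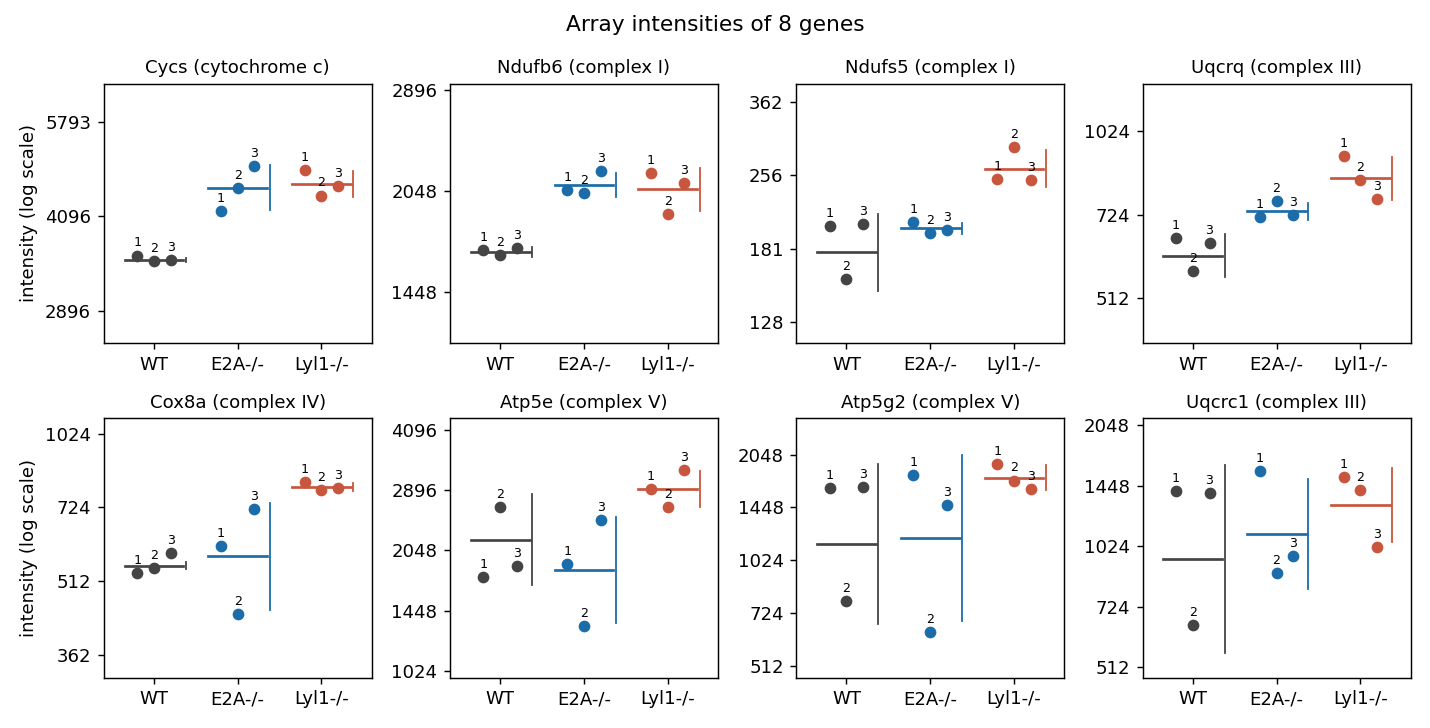
Intensity of 8 members on each array (points, numbered by replicate, log axis) with the mean (horizontal line) and SD (vertical line) of log2 values by genotype, WT 1 and 3 counted as 1 sample (n = 2 for WT, 3 for each knockout). Cycs and Ndufb6 have all knockout arrays above WT, Ndufs5 has the Lyl1-/- arrays above the rest, and Atp5g2 and Uqcrc1 have WT 2 far below WT 1 and 3. The 8 genes were chosen after their values were seen.

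Complexes II and III. The 4 genes of complex II, succinate dehydrogenase, which also serves the citric acid cycle, showed small differences. Sdha, the flavoprotein that oxidises succinate, read 1004, 833.5 and 1042 on WT, 1064, 1133 and 727.7 on E2A-/-, and 886.5, 994.3 and 805.6 on Lyl1-/- arrays. Its groups overlapped, with differences of 0.0521 (SE 0.198) in E2A-/- (-0.0954 without WT 2) and -0.0495 (SE 0.198) in Lyl1-/-. Sdhb, the iron-sulphur subunit, read 1361, 1336 and 1285 on WT, 1492, 836.1 and 1410 on E2A-/-, and 1526, 1514 and 1524 on Lyl1-/- arrays. All Lyl1-/- arrays were above WT and above E2A-/-, with 0.195 (SE 0.221, adjusted p = 0.909) from WT. The membrane anchors Sdhc and Sdhd differed by -0.13 and 0.153 in E2A-/- and by -0.0923 and 0.136 in Lyl1-/-, with SEs of 0.275 to 0.283 and overlapping groups. Sdhd read 286.5 on WT 2 against 406.1 and 484.8 on WT 1 and 3, and without WT 2 its differences turned to -0.162 and -0.179, and those of Sdhc became -0.335 and -0.297.

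Complex III had the highest median of the complexes in Lyl1-/-, 0.198 over 9 genes, and 0.0537 in E2A-/-. By array it was 0.265, 0.19 and 0.0527 on Lyl1-/- 1, 2 and 3. On Lyl1-/- 3 complexes IV and V were higher, at 0.124 and 0.103. Uqcrq, a small subunit next to cytochrome b, read 656.5, 572.9 and 642.9 on WT, 717.9, 765.3 and 721.8 on E2A-/-, and 925.9, 835.9 and 772.5 on Lyl1-/- arrays. The 3 genotypes did not overlap, in the order WT, E2A-/- and Lyl1-/-. The difference from WT was 0.268 (SE 0.111, unadjusted p = 0.0401, adjusted p = 0.555) in E2A-/- and 0.466 (SE 0.111, unadjusted p = 0.00265, adjusted p = 0.231) in Lyl1-/-. The E2A-/- difference was 0.178 without WT 2. A dimmer probe set of Uqcrq gave -0.014 and 0.0315. Uqcrb, known as a ubiquinone-binding subunit, read 6213, 6553 and 6258 on WT, 6899, 8053 and 7056 on E2A-/-, and 7471, 7251 and 7279 on Lyl1-/- arrays. It too lay above WT on all knockout arrays, with 0.195 (SE 0.0995, adjusted p = 0.67) and 0.198 (SE 0.0995, adjusted p = 0.64).

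Other complex III genes went lower or varied. Uqcrh, the hinge protein that contacts cytochrome c1, read 1717, 1785 and 1608 on WT, 1691, 1179 and 1238 on E2A-/-, and 1499, 1670 and 1689 on Lyl1-/- arrays. Its low readings were those on E2A-/- 2 and 3, and the difference in E2A-/- was -0.349 (SE 0.157, adjusted p = 0.604). Cyc1, the cytochrome c1 subunit, read 1647, 1718 and 1589 on WT, 2316, 1222 and 1272 on E2A-/-, and 2004, 1853 and 1190 on Lyl1-/- arrays. Each knockout had arrays on both sides of WT, with differences of -0.121 (SE 0.305) and -0.0229 (SE 0.305). The matrix-facing core protein Uqcrc2, named after its values were seen, differed by -0.0224 and -0.0476, with SEs of 0.1. Its other probe set had the opposite sign, with 0.195 in E2A-/- and 0.194 in Lyl1-/-.

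Complex IV. Of the 14 tested genes of cytochrome c oxidase, 12 had a difference above 0 in Lyl1-/- (85.7%, all genes 48.6%) and 9 in E2A-/- (64.3%, all genes 46.3%). Cox8a, the widely expressed form of the small subunit 8, read 532.6, 544.4 and 582.9 on WT, 603.8, 438.4 and 717.6 on E2A-/-, and 815.5, 786.9 and 792.5 on Lyl1-/- arrays. The Lyl1-/- arrays were above all others and close together, and the E2A-/- arrays were scattered on both sides of WT. The difference was 0.535 in Lyl1-/- (SE 0.181, adjusted p = 0.43) and 0.0618 in E2A-/-, and a second probe set had 0.337 and -0.0604. Cox6b2, the testis form of subunit 6b, read 173.5, 245.3 and 175.6 on WT, 157, 131.7 and 290.3 on E2A-/-, and 318.5, 291.2 and 285 on Lyl1-/- arrays. Its Lyl1-/- arrays lay above WT and overlapped with E2A-/- 3, with 0.526 (SE 0.302, adjusted p = 0.705). Its widely expressed counterpart Cox6b1 differed by 0.0217 in E2A-/- and 0.00337 in Lyl1-/-, with SEs of 0.103. A second probe set of Cox6b1, at 1410 to 2060, had 0.0233 and 0.294.

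On the probe sets used, Cox6c, Cox5a and Cox5b of complex IV lay above WT on all knockout arrays. Cox6c, a membrane subunit, read 3056, 3027 and 3133 on WT, 3211, 3936 and 3918 on E2A-/-, and 3629, 3359 and 3742 on Lyl1-/- arrays, with 0.263 (SE 0.116, adjusted p = 0.593) and 0.223 (SE 0.116, adjusted p = 0.659). The other probe set of Cox6c past the filter, at 1300 to 1980, had the opposite sign, with -0.345 in E2A-/- and -0.0934 in Lyl1-/-. Cox5a and Cox5b, which sit on the matrix side, differed by 0.162 and 0.175 in E2A-/- and by 0.121 and 0.147 in Lyl1-/-. They were named after their values were seen. A dim probe set of Cox5b past the filter, at 78.1 to 121, had -0.314 in E2A-/- and -0.362 in Lyl1-/-. The brighter other probe sets of Cox5b had 0.0788 to 0.168 and 0.166 to 0.189. Cox7c had differences below 0, and read 139.2, 198.6 and 144.5 on WT, 136.6, 147.7 and 77.38 on E2A-/-, and 150.4, 138.3 and 102.1 on Lyl1-/- arrays. The groups overlapped, and the differences were -0.533 (SE 0.295, adjusted p = 0.709) and -0.385 (SE 0.295, adjusted p = 0.813), and -0.29 and -0.142 without WT 2. The remaining widely expressed subunits named, Cox4i1, Cox6a1 and Cox7a2, differed by 0.215, 0.0751 and -0.0123 in E2A-/- and by 0.273, 0.103 and 0.00571 in Lyl1-/-. Cox4i1, whose product is needed to assemble the oxidase, read 2495 on WT 2 against 4106 and 4210 on WT 1 and 3, and without WT 2 its differences turned to -0.153 and -0.0956.

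Complex V. The lowest difference in E2A-/- against WT and between the knockouts and the highest in Lyl1-/- against WT were in the ATP synthase. Atp5e, the epsilon subunit of the central stalk, read 1755, 2624 and 1877 on WT, 1899, 1328 and 2444 on E2A-/-, and 2923, 2631 and 3249 on Lyl1-/- arrays. The Lyl1-/- arrays lay above all others, WT 2 by a narrow margin. E2A-/- minus Lyl1-/- was -0.673 (SE 0.227, unadjusted p = 0.0169, adjusted p = 0.453), and Lyl1-/- minus WT was 0.422 (SE 0.253, adjusted p = 0.721). Atp5l, subunit g of the membrane part, read 726.8, 1211 and 766.6 on WT, 851.6, 315.2 and 1043 on E2A-/-, and 1198, 1199 and 1204 on Lyl1-/- arrays. The Lyl1-/- arrays nearly coincided while the other genotypes spread widely, and E2A-/- minus Lyl1-/- was -0.875 (SE 0.401, adjusted p = 0.595). With WT 2 at the level of Lyl1-/-, the difference from WT was 0.336 (SE 0.448, adjusted p = 0.931).

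Atp5g1, Atp5g2 and Atp5g3 encode one and the same mature protein, subunit c of the rotor ring, from separate genes. Atp5g1 read 603.2, 448.2 and 567.7 on WT, 808.8, 369.6 and 666.5 on E2A-/-, and 883.7, 747.8 and 634.3 on Lyl1-/- arrays. Its Lyl1-/- arrays were above WT, with 0.547 (SE 0.307, adjusted p = 0.695), or 0.355 without WT 2, and E2A-/- overlapped with both. Atp5g2 read 1642, 782.9 and 1652 on WT, 1787, 638.4 and 1471 on E2A-/-, and 1927, 1729 and 1639 on Lyl1-/- arrays. WT 2 and E2A-/- 2 were far below the rest, and the other arrays overlapped. The difference in Lyl1-/- was 0.633 (SE 0.436, adjusted p = 0.777) and was 0.0968 without WT 2. Atp5g3 differed by 0.102 (SE 0.0909) in E2A-/- and -0.0124 (SE 0.0909) in Lyl1-/-.

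Of the ATP synthase head and stalk, Atp5a1, the alpha subunit, named here after its values were seen, differed by -0.0643 and -0.113 (SE 0.124), and Atp5c1, the gamma subunit that turns inside the head, by -0.18 and -0.211 (SE 0.125). Other probe sets of Atp5a1 past the filter had -0.0706 and 0.019 in E2A-/- and 0.417 and 0.112 in Lyl1-/-. Atp5c1 read 4422, 4435 and 4231 on WT, 4551, 3521 and 3603 on E2A-/-, and 3672, 3922 and 3764 on Lyl1-/- arrays. It was the only complex V member with all Lyl1-/- arrays below WT (adjusted p = 0.715). Atp5md, a small membrane subunit also known as DAPIT and named after its values were seen, was above WT on every knockout array. It read 797.5, 832.3 and 736.8 on WT, 863.8, 855.3 and 940.7 on E2A-/-, and 969.5, 997.4 and 1044 on Lyl1-/- arrays, with 0.149 (SE 0.0952, adjusted p = 0.768) and 0.329 (SE 0.0952, adjusted p = 0.339).

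Taken array by array, the members' median difference from the WT mean was -0.00215, 0.00742 and -0.00581 on WT 1, 2 and 3. It was 0.0933, -0.0424 and 0.0363 on the E2A-/- arrays and 0.16, 0.109 and 0.0584 on the Lyl1-/- arrays. The WT arrays form the mean they are measured from, so their values are drawn toward it and do not show the spread of WT. All 3 Lyl1-/- arrays had medians above the WT mean, and E2A-/- 1 lay above the lowest Lyl1-/- array. Of 80 members, 62, 61 and 51 were above the WT mean on the Lyl1-/- arrays (77.5%, 76.2% and 63.7%, against 46.7%, 52.7% and 46.6% of all tested genes). The same counts were 56, 38 and 46 on the E2A-/- arrays (70%, 47.5% and 57.5%, against 53.3%, 45.1% and 43.1%). The higher pair of Lyl1-/- arrays was the pair with high Xist, and the median of Lyl1-/- against WT was 0.0584 without it and 0.108 with Xist as a covariate. With the actin ratio as a covariate the Lyl1-/- median was 0.0535, the lowest of the 25 alternatives. Lyl1-/- 1 and 2 also had the lower Flt3 of the Lyl1-/- arrays, 671.6 and 741.6 against 1136 on Lyl1-/- 3. At bright probe sets they were the closest pair of arrays after WT 1 and WT 3. E2A-/- 2, where complex V had a median of -0.253 and complex III of -0.128, had a high actin ratio, granulocyte markers at 2.93 and high Xist. On WT 2, whose actin ratio was as high, the medians of complexes V and III were 0.0086 and 0.0358. WT 2 is itself part of the WT mean, so these medians cannot be set against those of E2A-/- 2.

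**Figure D3:**
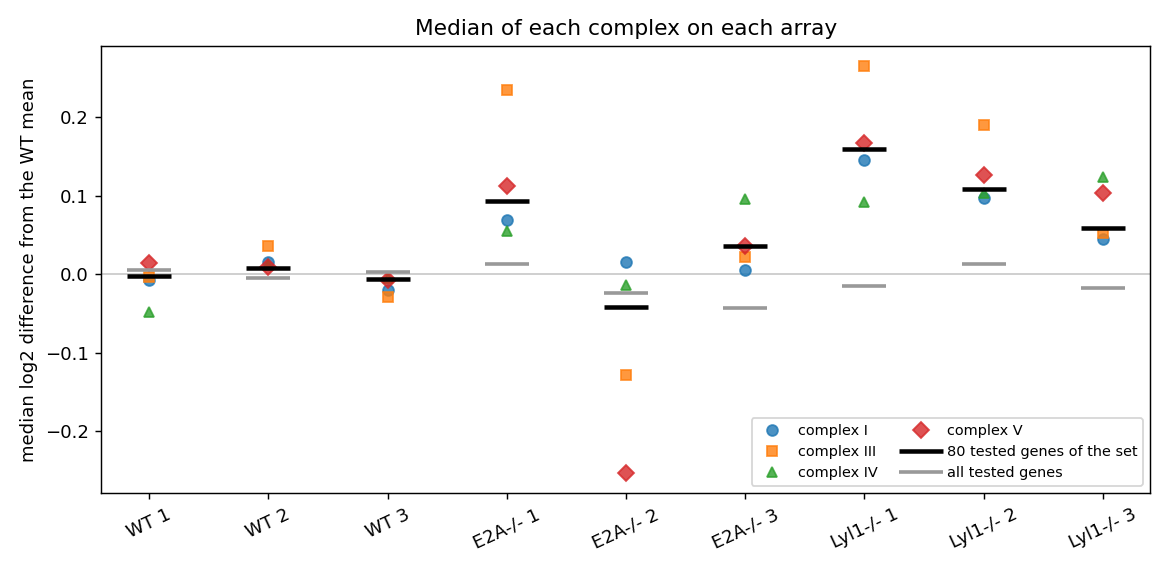
Median log2 difference from the WT mean on each of the 9 arrays, for complexes I, III, IV and V (symbols), for the 80 tested members (black bars) and for all 11961 tested genes (grey bars). The black bars of the Lyl1-/- arrays, 0.16, 0.109 and 0.0584, lie above the WT mean, and complexes III and V are lowest on E2A-/- 2. The WT arrays form that mean, so their closeness to it does not show the spread of WT.

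The arrays with the high actin ratio also held the lowest readings of several members. On E2A-/- 2, 14 of 80 members (17.5%) were more than 0.5 log2 units below the mean of E2A-/- 1 and 3, as 3.08% of all tested genes were. On WT 2, 6 members (7.5%) were that far below WT 1 and 3, as 3.71% of all tested genes were. Atp5g2 and Atp5b, the gene of the catalytic beta subunit, were low on both, Atp5g2 by -1.07 on WT 2 and -1.34 on E2A-/- 2 and Atp5b by -0.536 and -0.643. Uqcrc1, a core protein of complex III, read 1400, 650.5 and 1388 on WT, 1576, 875.7 and 966.3 on E2A-/-, and 1518, 1409 and 1017 on Lyl1-/- arrays. It was -1.1 on WT 2 against the other WT arrays, and Ndufa9, of the peripheral arm of complex I, was -0.913. On E2A-/- 2 the lowest were Atp5l at -1.58, Atp5g2 at -1.34 and Ndufa7 at -1.01, and Atp5l was 0.698 higher on WT 2, so that the pair did not share all its low genes. The part of RNA quality in these readings was not tested. Atp5b, Uqcrc1 and Ndufa9 and the 0.5 step were chosen after the values were seen.

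**Figure D4:**
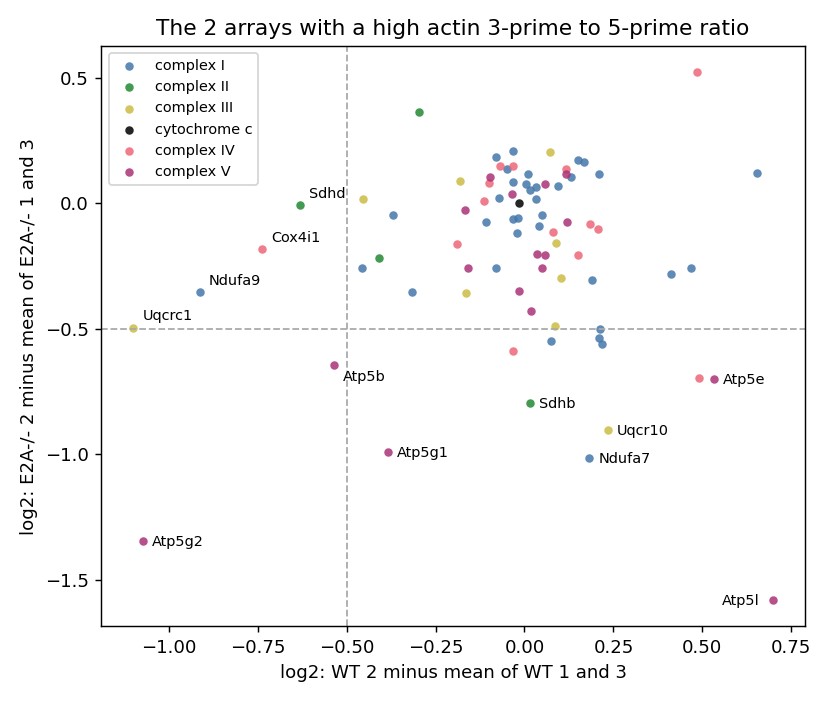
Each of the 80 tested members by its log2 difference on WT 2 from the mean of WT 1 and 3 (horizontal) and on E2A-/- 2 from the mean of E2A-/- 1 and 3 (vertical), coloured by complex. Dashed lines mark -0.5, and Atp5g2 and Atp5b are the 2 members beyond both. Labelled genes were chosen after their values were seen.

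Related lists of the pathway gave 1 gene past the threshold. Nnt, the proton-driven transhydrogenase of the inner membrane that makes NADPH, read 908.8, 1044 and 873.9 on WT, 468.8, 547.3 and 569.9 on E2A-/-, and 554.9, 480.2 and 494.6 on Lyl1-/- arrays. It fell in both knockouts, with differences of -0.873 (SE 0.127, limma adjusted p = 0.0464) in E2A-/- and -0.923 (SE 0.127, adjusted p = 0.0402) in Lyl1-/-, and no knockout array reached WT. The direction held in all 25 alternative settings and the call in 5 of them for E2A-/- and in 7 for Lyl1-/-, with adjusted p from 0.0101 to 0.695 and from 0.00743 to 0.654. Leaving out any single array other than WT 3 ended the call in E2A-/-, and any other than WT 3 or E2A-/- 1 ended that in Lyl1-/-. Without WT 2 the adjusted p of Nnt was 0.498 and 0.504. Nnt is known to be disrupted in the C57BL/6J substrain, and the labels name no strain. Its list, 17 tested carriers and membrane proteins, had a median of -0.00677 in E2A-/- and 0.00315 in Lyl1-/-.

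No other list had a gene past the threshold against WT. The 42 tested assembly factors, which build the complexes, had medians of -0.00109 in E2A-/- and 0.0549 in Lyl1-/-, with 0 and 5 higher and 1 and 0 lower at an unadjusted p under 0.05 (all genes 3.21% and 3.8% higher, 5.36% and 5% lower). The 76 mitochondrial ribosomal proteins, which translate the chain subunits that mitochondrial DNA encodes, had medians of -0.0113 and 0.146, and 60 of the 76 were above 0 in Lyl1-/-, with 7 higher and 1 lower at that p (all genes 48.6%, 3.8% and 5%). The 17 citric acid cycle genes had medians of -0.00991 and -0.0359, and the 18 regulators of mitochondrial biogenesis -0.0527 and -0.107. Of the regulators, Ppargc1a, a coactivator of respiratory genes, read 57.72 to 72.05 on Lyl1-/- and 78.16 to 102 on WT arrays, and all its Lyl1-/- readings lay below the array median, so that no difference is given. The 17 glycolysis genes had medians of 0.0904 and 0.0517, and Ldha, lactate dehydrogenase, differed by 0.53 (SE 0.23, adjusted p = 0.58) and 0.552 (SE 0.23, adjusted p = 0.554). Ldha read 493.7 on WT 2 against 830.3 and 778.3 on WT 1 and 3, and without WT 2 it differed by 0.178 and 0.2. Of the genes on mitochondrial DNA only ND5 was tested, a subunit of complex I that read 2287, 2614 and 2305 on WT, 1880, 2754 and 2561 on E2A-/-, and 2611, 2124 and 2660 on Lyl1-/- arrays. Its groups overlapped, with -0.0498 and 0.0016 (SE 0.178).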

How the data were processed

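RNA of sorted progenitors was labelled with biotin and hybridised to Affymetrix 3′ arrays. RMA and oligo are the tools that the submitters' processing notes name, without version or parameter, for what the authors ran. The deposited values are linear intensities, 1 per probe set and array, with array medians of 77.9 to 79.2. The lowest value per array, 42.1 to 45.1, leaves a constant under every value, so that differences of dim genes are understated. Log2 was taken without a pseudocount. The number of arrays limits the precision.

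Of 45101 probe sets, 34945 named 1 gene in GEO's platform annotation and were used. Each gene took its probe set of highest mean log2 value, and 11961 genes that exceeded the array median on 3 or more arrays were tested. WT 1 and WT 3 were averaged, leaving 8 samples and 5 residual degrees of freedom. The 3 genotypes were fitted together in R 4.3.3 by limma 3.58.1 (lmFit, then eBayes), two-sided, with Benjamini-Hochberg adjustment over all tested genes and a threshold of 0.05. The scripts were tested on simulated data. Differences are of log2 values, knockout minus WT or E2A-/- minus Lyl1-/-, with their standard error (SE). Where a gene is read on 3 arrays of a genotype, the values are in replicate order.

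The members, gene lists and settings were chosen with earlier results of these data known. Genes were named by rule: members past the threshold, the 5 highest and 5 lowest differences per comparison, the brightest of each complex, tissue-restricted isoforms with their counterparts, complex II, Cycs and Cyc1, and up to 3 genes of lowest p per list. Names outside it are marked. Ndufa4 and Ndufa4l2 were placed by symbol in complex I. Of 10 probe sets that name several genes, 6 symbols occur only there (Ndufa11 and Ndufs6 among them) and were left out. All 84 members matched the RefSeq gene table (GRCm38.p6). Promoters came from RefSeq on that build. The markers of other cell types (erythroid, B, T and NK, macrophage, stroma) are in sums per array: their ranges are 1732 to 2464 on WT, 1856 to 3236 on E2A-/- and 1490 to 1864 on Lyl1-/- for erythroid, 2559 to 3563, 1610 to 2524 and 2118 to 3046 for B, 1240 to 1486, 1591 to 2068 and 1350 to 1490 for T and NK, 813.5 to 953.1, 898.1 to 1321 and 1115 to 2039 for macrophage, and 561.3 to 934.5, 549.1 to 592.8 and 561.8 to 571.9 for stroma markers. Their part in the results was not tested.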

Additional observations from a re-analysis of the deposited data

How the results depend on the processing

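Over 25 alternatives, 23 planned and 2 added after seeing the data (without WT 1 and 3, and without Lyl1-/- 1 and 2), the number of members past the threshold was 0 in each comparison with limma. The alternatives were other scalings, filters, probe set rules, covariates for the actin ratio or Xist, fits of the compared genotypes alone, and arrays left out. The median difference of members ran from 0.0535 to 0.135 in Lyl1-/- against WT, from -0.0361 to 0.0933 in E2A-/- against WT and from -0.136 to -0.00679 between the knockouts. Leaving out single arrays gave 0.0771 to 0.135, -0.0361 to 0.0404 and -0.136 to -0.0588, with the lowest 2 of E2A-/- without E2A-/- 1 and WT 2 (-0.0361 and -0.0019) and the lowest between the knockouts without E2A-/- 1. Without E2A-/- 2 and 3 the medians were 0.0933 in E2A-/- and -0.00679 between the knockouts, and the cause was not tested. Of members above 0 between the knockouts, 22 in the fit reported, the count was 39 without E2A-/- 2 and 3, 37 without Lyl1-/- 1 and 2 and 14 with the mean of probe sets. The all-gene counts of 27, 23 and 14 ran from 6 to 97, 1 to 93 and 2 to 23. A group left with 1 sample takes its spread from the others. As 9 separate arrays with the replicate number as a block, the medians were -0.00253, 0.0986 and -0.0693 with 0 members and 60, 55 and 13 genes past the threshold. Deviations from the genotype mean correlated at -0.143 to 0.221 between same-numbered arrays. For 4 of the 9 arrays the closest array of another genotype had the same number. So few arrays cannot settle whether the numbers pair the samples.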
